A study of Drosophila melanogaster with 3 samples.

Results

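The genes described here encode the protein components of the large subunit of the cytosolic ribosome. Members were the protein-coding genes of the Ensembl release 115 annotation of dm6 whose symbol is RpL followed by a digit or by P and does not end in -like. The rule gave 50 of the 13986 protein-coding genes of Drosophila melanogaster. Chromatin immunoprecipitation followed by sequencing was used to locate the product of CG7368, assayed as a transcription factor, on the genome of whole prepupae. The animals came from the transgenic line CG7368-GFP, in which a green fluorescent protein (GFP) is fused to the C terminus of CG7368, and the fusion was precipitated with an antibody against GFP. All 3 libraries are biological replicates of this 1 group, each from males and females pooled, with the age given as unknown. Chromatin was sonicated to 200 to 800 bp. All replicates come from the same line, and whole animals were used, so which cells carried the protein on a given promoter cannot be told apart. An experiment that the labels list as a possible control was not analysed here, and neither was any line without the tag, so the background of the precipitation at these promoters was not measured.

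Each replicate has a deposited list of 30000 regions, the pooled list made from all 3 replicates also holds 30000, and the optimal list holds the 5246 pooled regions retained by the irreproducible discovery rate (IDR) procedure, which keeps regions whose ranks are repeatable. A summit no farther than 500 bp from a transcription start site (TSS) annotated for a gene is called a promoter summit of it, and a gene is called bound where the optimal list holds one. Ranks order regions within a list by the authors' deposited signal, from 1 for the highest. Optimal regions keep their pooled rank and signal. Where a gene had several promoter summits, the one with the highest signal was used. The read number of the libraries is not known from these sources, and with it the depth.

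The large subunit joins amino acids at its peptidyl transferase centre, releases the growing chain through an exit tunnel and recruits elongation factors by a flexible stalk. Most of its proteins are present once per subunit, and in flies the loss of a single copy of many ribosomal protein genes gives the Minute phenotype of slow development and thin bristles. Most fly ribosomal protein genes start transcription at a polypyrimidine initiator, the TCT motif, in place of the common initiator, and the regulators M1BP and DREF are known to act at such promoters.

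Of the 50 large subunit genes, 37 (74.0%) had an optimal promoter summit, where 14.9% of all protein-coding genes had one. The pooled list held a promoter summit of 42 members, where it held one for 36% of all genes, and 37 of these 42 (88.1%) were retained by IDR, against 41.3% of all genes with a pooled promoter summit. Down to the lowest bound member, RpL10 at 4906, member ranks were the same in both lists. The 5 members not retained ranked 6494 or lower in the pooled list. Retention of members thus followed the pooled rank and is not a separate measure of repeatability. The summit lay nearer to a TSS of the ribosomal gene than to that of any other gene for 34 members, where 11.5% of all genes had such an optimal summit. The replicates taken singly gave like numbers. Among the 5246 highest regions of a list there were promoter summits of 37 members in replicate 1, 39 in replicate 2 and 35 in replicate 3 (37 ± 2, SD, n = 3). Over all genes the shares were 15.2%, 15.7% and 16.2%, so each replicate placed the members well above the level of all genes. For 30 members all 3 replicates had such a summit, where 10.4% of all genes did, and for 39 members at least 2 replicates had one, where 15.3% of all genes did. All 30 are among the 37 bound genes.

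Bound genes stood mostly in the upper part of the optimal list. Their median rank was 1629, from 377 for RpL7 to 4906 for RpL10, and the median over all 2079 bound protein-coding genes was 2155. With the optimal ranks cut into 4 equal parts, from the highest down, the members numbered 15, 13, 6 and 3, while 34.1%, 25.1%, 21.5% and 19.3% of all bound genes fell in those parts. The signal of the members ran from 109 to 486 with a median of 232, against a median of 192 for all bound genes. The highest regions of the optimal list, which reach 3148, are at other genes.

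**Figure D1:**
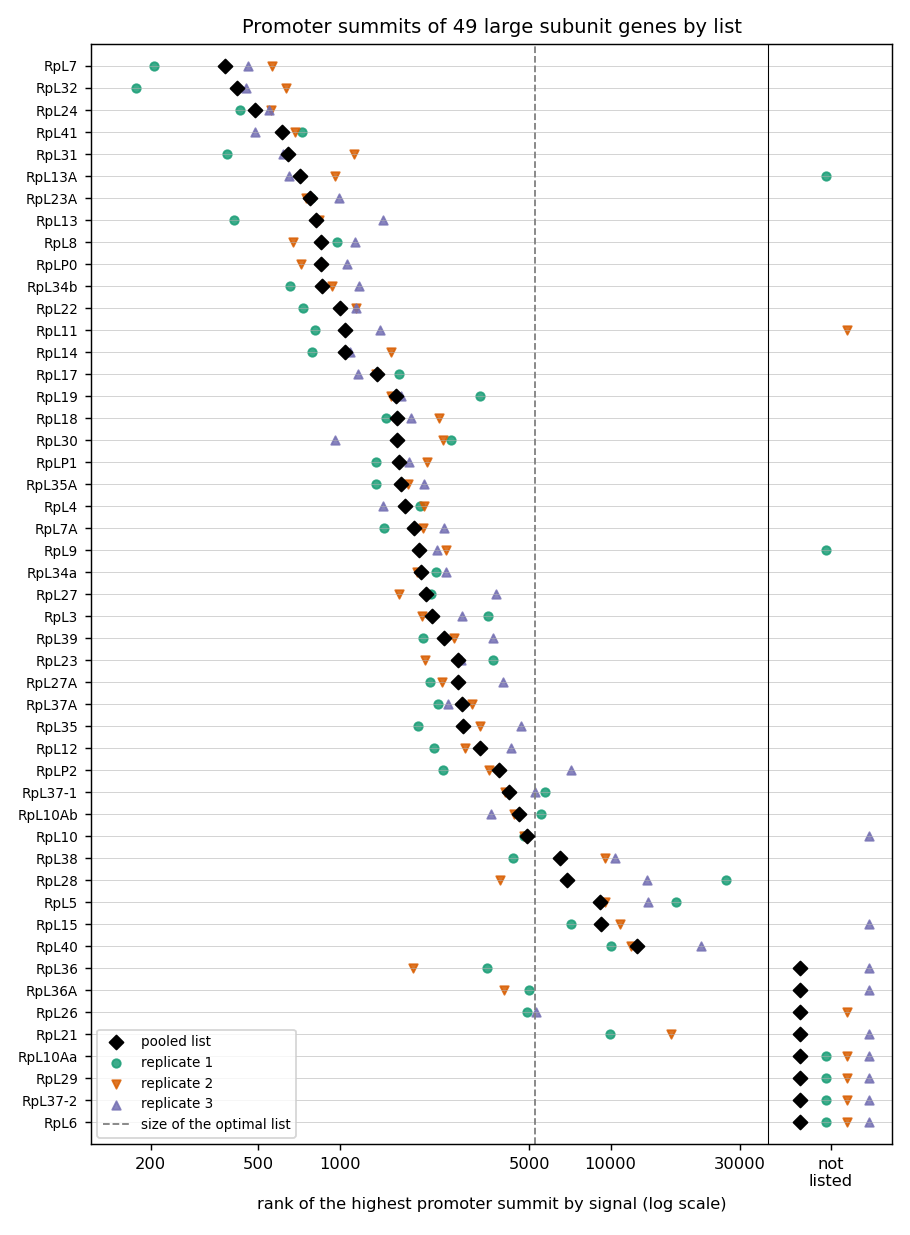
Rank of the highest promoter summit of 49 of the 50 genes in the pooled list and in each replicate list, on a log axis, with genes without a promoter summit in a list placed at the right under "not listed". The dashed line marks rank 5246, the size of the optimal list, and the 36 bound genes plotted lie to its left in the pooled list.

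The 6 members with the highest optimal summits were RpL7, RpL32, RpL24, RpL41, RpL31 and RpL13A. RpL7 (FBgn0005593) had its region at 2L 10200931 to 10201159, with a signal of 485.5 in the pooled list and ranks 205, 563 and 459 in replicates 1, 2 and 3. Its summit lay in the 5′ UTR, 44 bp upstream of its nearest TSS in the optimal list and 46, 42 and 36 bp upstream in the replicates. The 3 replicate positions of RpL7 fell within 10 bp of each other, and the TSS of the neighbour Ripalpha was 82 bp from the summit.

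RpL32, whose transcript serves as a common reference in fly expression work, ranked 176, 633 and 451 in the replicates and 418 in the optimal list. Its summit lay 173 bp upstream of its TSS, 136 bp from the TSS of CG7943, and the replicate positions were 93, 187 and 172 bp upstream. RpL32 is therefore a member whose region cannot be assigned to it alone. RpL24, which makes a bridge between the subunits, ranked 426, 555 and 549. Its summits lay 6 bp downstream, 8 bp upstream and 12 bp downstream of its nearest TSS. No TSS of another annotated gene was within 500 bp of its optimal summit. RpL41, the gene of a very small protein at the subunit interface, ranked 725, 681 and 487, and the TSS of the sodium channel gene NaCP60E was 90 bp from its summit against 92 bp for its own.

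RpL31, whose product sits at the rim of the tunnel exit, ranked 384, 1130 and 617 and had its summit 12 bp downstream of the TSS. RpL13A, known in human cells also for silencing the translation of inflammatory transcripts, ranked 714 in the optimal list, 958 in replicate 2 and 651 in replicate 3. In replicate 1 it had no promoter summit, and the nearest listed summit was 1263 bp from its TSS. Of these 6 genes, 5 were within the highest 1130 regions of every replicate, and RpL13A was the exception.

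The genes of the P stalk, which recruits elongation factors, were all bound and differed in rank. For this and the groups that follow, counts bound stand beside 37 of 50 members (74.0%). No difference between groups was tested. RpLP0, the base of the stalk, ranked 855, 716 and 1058 in the replicates, and RpLP1 ranked 1355, 2104 and 1797. RpL12, which binds the rRNA beside RpLP0, ranked 2229, 2897 and 4269. RpLP2, the partner of RpLP1 in the stalk dimer, ranked 2403, 3553 and 7168. In every replicate RpLP0 stood above RpLP1 and both stood above RpL12 and RpLP2, and in replicate 3 RpLP2 fell outside the highest 5246.

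The 5S particle carries RpL5 and RpL11, which enter the subunit together with the 5S rRNA, and the pair was split. RpL11 was bound at rank 1045, with ranks 806 in replicate 1 and 1401 in replicate 3 and no promoter summit in replicate 2. RpL5 had a pooled summit at rank 9141 that was not retained, and ranked 17431, 9528 and 13782 in the replicates. The signal of RpL11 in the pooled list was 301 and that of RpL5 was 67.0.

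Of the 8 genes whose products line the exit tunnel or its mouth, RpL4, RpL17, RpL19, RpL23A, RpL31, RpL35 and RpL39 were bound and RpL26 was not. Over all members the share bound was 74.0%. RpL23A, a docking site of the signal recognition particle, stood next after RpL31, with ranks 783, 748 and 995. RpL17 ranked 1656, 1354 and 1167, and RpL4, which reaches into the tunnel wall, ranked 1974, 2041 and 1447. The ranks of RpL19 were 3295, 1548 and 1685, so that replicate 1 stood apart from the others. RpL39 ranked 2033, 2637 and 3676, and RpL35 ranked 1942, 3284 and 4679. RpL26 ranked 4912 in replicate 1 and 5315 in replicate 3, with summits 35 and 39 bp downstream of its TSS, and had no promoter summit in replicate 2 or in the pooled list, where the nearest summit was 628 bp away.

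Among the core and intersubunit genes, RpL8 ranked 973, 670 and 1140 and RpL3, whose product reaches the peptidyl transferase centre, ranked 3515, 2009 and 2828. RpL10, which in yeast is among the last proteins to join the subunit, had the lowest optimal summit of all members. It ranked 4778 and 4784 in replicates 1 and 2 and had no promoter summit in replicate 3. All 5 genes of this list, with RpL24 and RpL41, were bound, where 74.0% of all members were.

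Duplicated genes differed from their copies. RpL34b ranked 652, 936 and 1174 and RpL34a ranked 2256, 1920 and 2463, so both were bound with RpL34b above RpL34a in every replicate. RpL37-1 was bound at rank 4224, with ranks 5720, 4064 and 5245, while RpL37-2 had no promoter summit in any of the 5 lists. RpL10Ab, of the L1 stalk that guides transfer RNA out of the ribosome, was bound at rank 4590, with ranks 5550, 4381 and 3626. Its copy RpL10Aa had no promoter summit in any list. For 2 of the 3 pairs the optimal list therefore held 1 copy and not the other, where 74.0% of all members were bound. How alike the promoters of the copies are was not measured. Any reads shared by copies could be placed on either or dropped, and their treatment is not stated in the labels or headers. Whether this bears on the differences was not tested.

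Further bound genes, in the order of their optimal ranks, were RpL13, RpL22, RpL14, RpL18, RpL30, RpL35A, RpL7A, RpL9, RpL27, RpL23, RpL27A and RpL37A. Their ranks ran from 818 for RpL13 to 2819 for RpL37A. RpL13 shares its region with Dref, the gene of the regulator DREF, whose TSS was 79 bp from the summit. RpL9 ranked 2465 and 2285 in replicates 2 and 3 and had no promoter summit in replicate 1. RpL30 had its highest rank, 956, in replicate 3 and ranked 2582 and 2398 in the others.

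The 13 genes that were not bound fell into 3 kinds. RpL38, RpL28, RpL5, RpL15 and RpL40 had pooled promoter summits that were not retained, at ranks 6494, 6914, 9141, 9205 and 12483. RpL26, RpL36, RpL36A and RpL21 had promoter summits in 2 replicate lists each and none in the pooled list. RpL6, RpL29, RpL37-2 and RpL10Aa had none in any list. Of the whole family, 37 members had a promoter summit in all 3 replicate lists, 9 in 2 and 4 in none.

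RpL38, which in the mouse is needed for the translation of Hox transcripts, ranked 4372 in replicate 1 and 9505 and 10355 in the others. RpL28 showed the widest spread of all members listed in every replicate, with ranks 26784, 3890 and 13669, followed by RpL40, the gene of a ubiquitin fusion, with 10027, 11906 and 21502, and by RpL5. The pooled summit of RpL28 lay 282 bp upstream of its TSS. RpL15 ranked 7142 and 10825 in replicates 1 and 2, and in replicate 3 it had no promoter summit. RpL21 ranked 9972 and 16664 in those replicates and likewise had none in replicate 3.

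RpL36 and RpL36A were missing from lists in which other replicates placed them high. RpL36 ranked 3501 in replicate 1 and 1859 in replicate 2, with summits 19 and 11 bp upstream of its TSS, but in replicate 3 the nearest listed summit was 7483 bp away and in the pooled list 10075 bp away. RpL36A, whose product lies at the site from which transfer RNA leaves, ranked 4976 and 4042, and its nearest summits were 7969 bp away in replicate 3 and 7983 bp in the pooled list. The same held for single replicates of bound genes, RpL13A and RpL9 in replicate 1, RpL11 in replicate 2 and RpL10 in replicate 3. Over all genes, of those among the highest 5246 of the other replicates, 6.05% had no promoter summit in replicate 1, 2.43% in replicate 2 and 2.62% in replicate 3, and for members the shares were 2 of 34 (5.88%), 1 of 31 (3.23%) and 3 of 34 (8.82%). Of genes high in at least 2 replicates, 7.38% had no pooled promoter summit, and RpL36 and RpL36A were 2 of 39 such members (5.13%). Such gaps occur across the lists, and their cause was not tested. For RpL36 and RpL36A, absence from the optimal list is not a measurement of low binding.

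Apart from these gaps the replicates ordered the members in much the same way. Over the 37 members listed in all 3 replicates, Spearman's rho of the ranks was 0.858 between replicates 1 and 2, 0.827 between 1 and 3 and 0.878 between 2 and 3, as a description across genes.

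The summits of the members lay closer to the TSS than those of bound genes as a whole. The median position of the 37 optimal summits was 11 bp upstream of the TSS, from 308 bp upstream for RpL23 to 40 bp downstream for RpL3. The median distance in either direction was 20 bp, against 158 bp for all bound protein-coding genes. Within 10 bp of the TSS lay 13 members (35.1%), within 50 bp 29 (78.4%) and within 100 bp 35 (94.6%). Over all bound genes these shares were 3.56%, 13.7% and 29.0%. RpL23 and RpL32 were the members farther than 100 bp, and both had summits nearer to a TSS of another gene.

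Measured from the nearest TSS of the gene, most summits were on the upstream side, 27 of 37 (73.0%), and 82.1% were upstream over all bound genes. RpL35A and RpL37A had the summit at the TSS itself, and RpL24, RpL31, RpL30, RpLP1, RpL27, RpL3, RpL12 and RpL37-1 had it downstream. The 50 bp before the TSS held 51.4% of the member summits and 7.17% of all, and the 50 bp after it 27.0% and 6.45%. The commonest bin for all bound genes, 100 to 150 bp upstream with 16.2%, held no member. By annotation only 19 of the 37 summits lay upstream of the gene, 16 in the 5′ UTR and 2, those of RpL3 and RpL35, in an intron. Some summits counted as upstream of the nearest TSS, such as that of RpL7, therefore lay inside the gene, downstream of its first TSS. No summit was shared by 2 members.

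**Figure D2:**
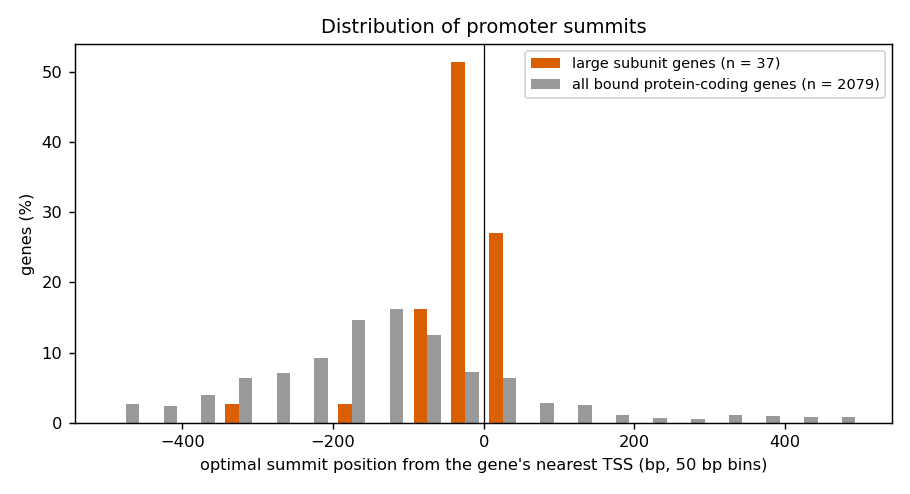
Share of genes by the position of the optimal promoter summit from the gene's nearest TSS, in 50 bp bins, for the 37 bound large subunit genes and for all 2079 bound protein-coding genes. Member summits gather in the 2 bins at the TSS (51.4% and 27.0%), while those of all bound genes spread over the 500 bp upstream.

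The closeness held in each replicate. Among members in the highest 5246 regions, the median distance was 26 bp in replicate 1, 16 bp in replicate 2 and 25 bp in replicate 3 (22.3 ± 5.51 bp, SD, n = 3), and over all genes it was 154, 158 and 152 bp (155 ± 3.06). The share within 100 bp was 94.6%, 87.2% and 91.4% for members (91.1% ± 3.71) and 29.5%, 30% and 31.5% for all genes (30.3% ± 1.04). The difference is many times the spread between replicates. Since 3 replicates allow no p below 0.25 in a sign-flip test, none was run. Among genes with 1 annotated TSS the median distance was 31 bp for 20 members and 157 bp for 1015 genes, and where the own TSS was nearest it was 17 bp for 34 members and 136 bp for 1612 genes.

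**Figure D3:**
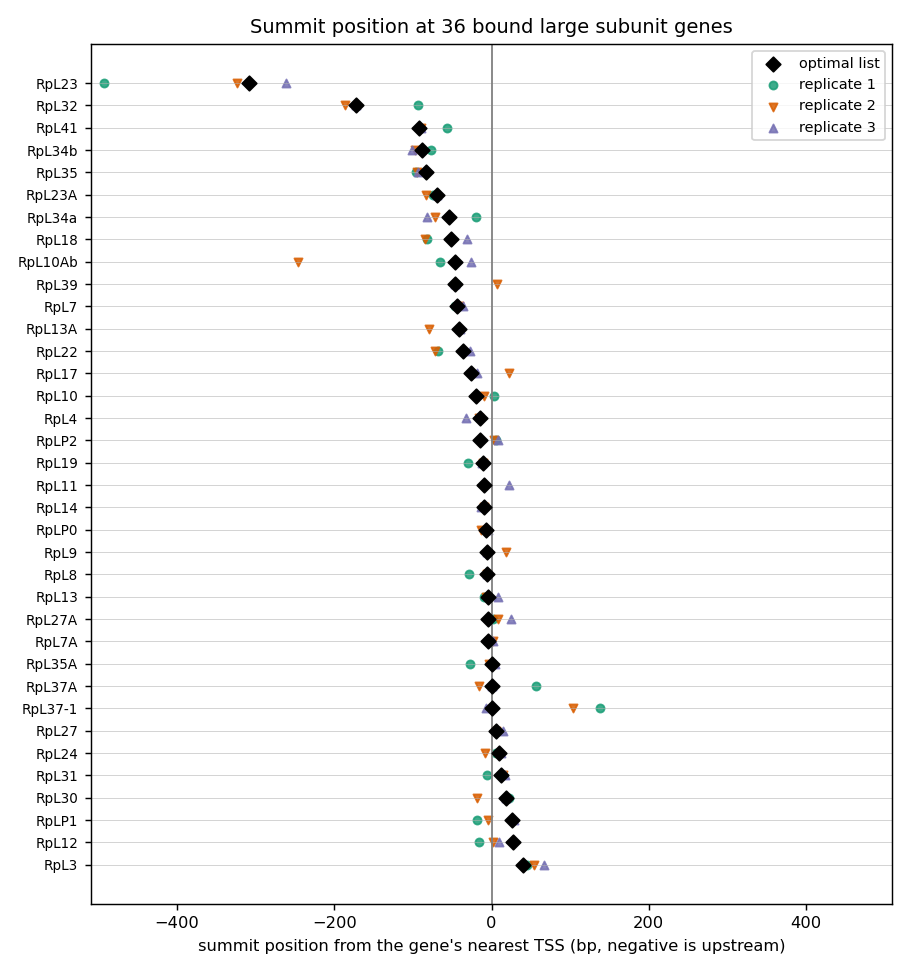
Position of the highest promoter summit from the nearest TSS of the gene, in bp with negative values upstream, in the optimal list and in each replicate for 36 of the 37 bound genes. Positions of most genes lie close to each other and to the TSS, with RpL23 and RpL32 the farthest upstream and RpL37-1 and RpL10Ab spread between replicates.

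Single genes mostly kept their position relative to a nearest TSS between replicates. For genes with several TSSs the nearest one could differ between lists, so these spreads are not always movements of the summit itself. Over the 37 members listed in all replicates the median SD of the position was 16.3 bp, and for 24 of them the positions spanned at most 50 bp. RpL14 was among the most repeatable, with summits 9, 9 and 13 bp upstream, and RpL35 had 96, 95 and 94 bp upstream. RpL37-1 was among the least, with 138 and 104 bp downstream in replicates 1 and 2 and 7 bp upstream in replicate 3. RpL10Ab lay 65, 246 and 26 bp upstream. These are positions of the highest promoter summit in each list, and some lists also held a lower one nearer to the TSS. Such summits lay 47 bp from the TSS for RpL10Ab in replicate 2, and 62 and 96 bp for RpL37-1 in replicates 1 and 2. RpL23 lay 493, 324 and 262 bp upstream, near CG13531, whose TSS was 248 bp from the optimal summit, although the pooled list also had a lower region with a summit 6 bp from the TSS of RpL23.

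The promoters were searched for the TCT motif, which here is the word TCTTTC, the word TCTTTT, the word CCTTTC or the word CCTTTT on the strand of the gene with the C at its second letter within 10 bp of an annotated TSS. It was found in 45 of 50 members (90%) and in 4.08% of all protein-coding genes, within 20 bp in 49 of 50 (98%) against 7.61%, and within 5 bp in 30 of 50 (60%) against 2.12%. With its C exactly at an annotated TSS it was in 0 of 50 members and in 0.186% of all genes. RpL10Aa, RpL12, RpL17, RpL26 and RpL34a had none within 10 bp, and RpL12, RpL17 and RpL34a of these are bound. Of the 45 genes with the motif 34 were bound, a share near that of all members, 37 of 50 (74.0%). The motif was present in bound and unbound members alike. The C of the motif lay a median of 4 bp downstream of the annotated TSS, from 2 bp upstream to 9 bp downstream. For 32 of the 34 bound members the motif lies at the TSS nearest to the optimal summit, and for RpL13 and RpL24 it lies at another TSS. Measured from its C in the 32, the summit lay upstream in 27, and the median position over the 32 was -19 bp. Outside both subunits, 118 of 497 genes with the motif (23.7%) were bound, where 14.9% of all protein-coding genes were.

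Promoters of 10 members show where the motif lies relative to the TSS, each from 100 bp before the TSS to 20 bp after it on the strand of the gene, 5′ to 3′, from the RefSeq copy of the dm6 assembly. The TSS is the one nearest to the optimal summit, or that of the canonical transcript for genes that are not bound. It is the letter after the first 100, and capitals mark the TCT motif. The first 7 are of bound genes in order of rank, from RpL13A at 714 to RpL10 at 4906.
RpL13A (chr3R:5624374-5624494, plus strand): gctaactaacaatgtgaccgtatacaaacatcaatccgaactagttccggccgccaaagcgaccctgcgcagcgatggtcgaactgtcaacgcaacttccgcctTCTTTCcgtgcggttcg
RpL23A (chr3L:1668634-1668754, minus strand): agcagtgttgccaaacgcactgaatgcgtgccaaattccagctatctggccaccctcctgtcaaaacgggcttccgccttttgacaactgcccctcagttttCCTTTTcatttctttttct
RpL8 (chr3L:2587356-2587476, plus strand): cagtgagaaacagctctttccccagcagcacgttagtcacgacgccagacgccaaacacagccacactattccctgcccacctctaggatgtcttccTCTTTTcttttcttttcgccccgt
RpLP1 (chr2L:419852-419972, plus strand): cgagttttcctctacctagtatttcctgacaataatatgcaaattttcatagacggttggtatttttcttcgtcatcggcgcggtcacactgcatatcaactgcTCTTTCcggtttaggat
RpL4 (chr3R:27922721-27922841, plus strand): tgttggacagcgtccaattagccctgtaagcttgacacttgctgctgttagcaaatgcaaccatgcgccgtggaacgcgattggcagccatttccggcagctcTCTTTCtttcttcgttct
RpL27 (chr3R:25685031-25685151, minus strand): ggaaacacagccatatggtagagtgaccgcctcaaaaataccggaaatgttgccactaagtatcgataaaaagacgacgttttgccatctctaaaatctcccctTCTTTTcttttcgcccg
RpL10 (chr3L:23095451-23095571, minus strand): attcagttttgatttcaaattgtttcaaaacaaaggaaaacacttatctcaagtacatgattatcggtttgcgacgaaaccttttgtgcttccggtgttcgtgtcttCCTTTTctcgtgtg
The next 3 are of genes that are not bound, RpL6 with no promoter summit in any list, RpL40 with a pooled summit that was not retained, and RpL10Aa, which has neither a summit nor the motif.
RpL6 (chr3R:31596184-31596304, minus strand): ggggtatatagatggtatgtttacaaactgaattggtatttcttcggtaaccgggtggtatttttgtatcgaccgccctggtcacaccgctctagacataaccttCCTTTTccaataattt
RpL40 (chr2L:4227599-4227719, plus strand): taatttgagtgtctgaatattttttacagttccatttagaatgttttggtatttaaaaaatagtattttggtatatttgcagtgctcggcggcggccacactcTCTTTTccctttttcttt
RpL10Aa (chr3R:15037266-15037386, plus strand): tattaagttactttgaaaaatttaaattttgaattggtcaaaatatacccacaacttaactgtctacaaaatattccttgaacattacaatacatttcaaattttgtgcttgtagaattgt
By its C, the motif lies 6 bp downstream of the TSS in RpL6 and 4 bp in RpL40. Among the bound genes it lies 2 bp upstream in RpL8 and downstream by 3 bp in RpL23A, 4 bp in RpL4, 5 bp in RpL13A, RpL27 and RpLP1 and 8 bp in RpL10.

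Other motifs were searched on both strands from 250 bp before to 20 bp after the TSS of the canonical transcript of each gene, which for some members is not the TSS nearest to the summit. TATCGATA, the motif of DREF and BEAF-32, was in 13 of 50 members (26%) and in 8.58% of all promoters. GGTCACAC, the core of the M1BP motif, was in 6 (12%) and 6.21%. TATAAA was in 22 (44%) and 43.4%, CACGTG, the E-box of Myc and others, in 4 (8%) and 3.14%, AAAAAAA in 14 (28%) and 24.1%, and GAGAGAG in 0 and 5.86%. TATCGATA occurred in 8 of 37 bound members, among them RpL27, whose printed promoter holds it in lower case, and in 5 of the 13 others, RpL26, RpL28, RpL36, RpL36A and RpL6. The word CCACACT, chosen after the promoters had been seen, was in 10 members (20%), among them RpL8 and RpL40 as printed, and in 4.07% of all promoters. Letters found are a description and not a site, and their absence from a window says nothing of a factor.

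Within 50 bp of the optimal summit, TATCGATA was in 7 of 37 members (18.9%) and in 2.16% of all bound genes. Among them were RpL10Ab, RpL19, RpL27, RpL34a, RpL39 and RpL41. GGTCACAC was in 4 (10.8%), RpLP0, RpLP1, RpL27A and RpL37A, and in 1.15% of all. RpLP0, RpL27A and RpL37A do not hold it in the window at their canonical TSS and were not counted there. TATAAA was in 2 members (5.41%), RpL39 and RpLP1, and in 20.5% of all, and AAAAAAA in 1, RpL23 (2.7%), and 12.1%. CACGTG was in 2 (5.41%), RpL7 and RpL11, and in 0.722% of all, and GAGAGAG in 0 and 2.69%. These windows are centred nearer the TSS in the members than in other bound genes, so the shares compare different distances from the start of transcription. Base composition within 25 bp of the summit differed in the same comparison. The median AT content was 52.9% in the members, from 35.3% for RpL22 to 84.3% for RpL23, and 66.7% over all bound genes.

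Other genes of translation were counted in the same way, from lists chosen with earlier results of these data known. Of 38 small subunit genes 22 (57.9%) were bound, led by RpS27 at rank 224, and 29 of the 38 (76.3%) had the TCT motif. Their summits lay at a median distance of 6.5 bp from the TSS, where those of the large subunit lay at 20 bp, and 21 of 22 were within 100 bp. The difference between the subunits was not tested. Of 73 mitochondrial ribosomal protein genes 13 (17.8%) were bound, at a median distance of 177 bp, and the own TSS was nearest for 3 of them. Within 100 bp lay 1 of the 13 mitochondrial summits (7.69%) and 35 of the 37 large subunit summits.

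Of 9 genes listed under elongation 4 were bound, eEF1gamma at rank 659, eEF1alpha1 at 1701, eEF2 at 4017 and eEF5 at 4367. Those not bound were eEF1alpha2, eEF1beta, eEF1delta, Tctp and eIF5, whose symbol is that of an initiation factor. The list is therefore not of elongation factors alone. Of 18 nucleolar and assembly genes 5 were bound, among them eIF6, whose product keeps the new large subunit from joining the small one too early, at rank 52, and Ns2 at 155. The TSS of another gene was nearer to the summit at both of these, and the own TSS was nearest for 2 of the 5. Of 9 genes of regulators of ribosome genes 6 were bound, Dref at 818 by the region shared with RpL13, Mnt at 1018, M1BP at 1071, Max at 2726, Trf2 at 3726 and BEAF-32 at 5022. For 3 of these 6 the own TSS was nearest, and at Dref, M1BP and Max another was nearer. The median distance over the 6 was 197.5 bp. The count stands beside 14.9% of all genes.

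**Figure D4:**
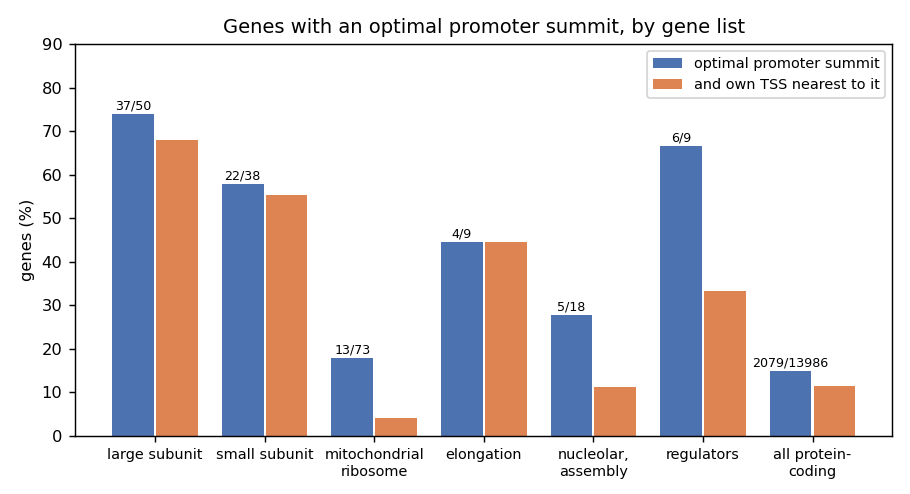
Share of genes with an optimal promoter summit, and with one that is nearest to their own TSS, by gene list and in all protein-coding genes, with the counts bound above the bars. Large subunit genes reach 74.0% and small subunit genes 57.9%, against 14.9% of all genes.

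Bound and unbound members were also set side by side by their surroundings. Around the TSS, the number of optimal summits within 100 kb outside the gene's own promoter had a median of 10 (0 to 21) for bound members and 7 (0 to 16) for the others. It was 0 for RpL5, RpL15, RpL21, RpL38 and RpL10. The first 4 were not bound, and RpL10 was bound with the lowest rank. RpL5, RpL15 and RpL38 are known to lie in pericentromeric heterochromatin. The nearest optimal summit to RpL15 was 4171764 bp away, to RpL5 517602 bp, to RpL21 228785 bp and to RpL38 227802 bp. Of the 45 members with other optimal summits in reach 36 (80.0%) were bound. Counting all genes together, with and without summits in reach, 74.0% of members and 14.9% of all protein-coding genes were bound. The share of all genes bound among those with summits in reach is not given here. Over all genes 464 had 0 in reach, of which 14 (3.02%) were bound. RpL6, RpL36A and RpL26 were unbound with 9, 13 and 7 optimal summits in reach, RpL36A with the limit given above. The summits in reach come from the same optimal list that defines bound genes. Whether location bears on being bound was not tested.

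By chromosome arm, 8 of 12 members were bound on 2L, 9 of 12 on 2R, 7 of 10 on 3L, 8 of 10 on 3R and 5 of 6 on X. Over all arms 74.0% of members and 14.9% of all protein-coding genes were bound. The share of all genes on each arm is not given here, so no difference between arms is read from these counts. Another protein-coding gene had a TSS within 500 bp of the summit at 17 of 37 members (45.9%) and at 44.8% of all bound genes. These neighbours include Nelf-E, 117 bp from the summit at RpL14, and CG3776, 158 bp from that at RpL19. Many ribosomal protein genes carry small nucleolar RNAs, which guide rRNA modification, in their introns, and 16 members held 33 of them, while 0.601% of all genes held any. Of these 16 hosts 12 were bound, a share near that of all members, 37 of 50 (74.0%). Of 55 hosts outside both subunits 16 were bound (29.1%). RpL28 held 5, RpL17, RpL23A and RpL3 4 each.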

How the data were processed

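ChIP-seq of CG7368-GFP in 3 biological replicates of 1 group was analysed from the dm6 lists that the authors deposited. The signal of each region (column 7 of the lists) is the authors' deposited value; the labels and headers name no formula, peak caller, aligner, IDR threshold or depth, so signals were only ranked within a list. Per the text deposited with the files, the pooled list draws on alignments of all 3 replicates and the optimal list was thresholded by IDR. Lists in dm3 coordinates were not used. Starts were converted to 1-based positions, and all regions lie inside the chromosomes of the reference. TSSs came from all transcripts in Ensembl release 115. Summits within 500 bp of a TSS were assigned to the gene; 1 summit can count for several genes. The members and gene lists were chosen with earlier results of these data known. In the counts 1 member is included that is not reported by name here. Members named in full were the 6 highest, all that were not bound, those of set structural roles, duplicated genes, those nearer to another TSS and the 3 with the widest spread of ranks. The lists matched 9 of 10 elongation, 18 of 20 nucleolar and assembly and 9 of 10 regulator symbols. Shares over 13986 protein-coding genes are given beside the members; no set test was run, because genes are not replicates. Motif windows were available for 13967 genes. Assignment of summits was tested on simulated positions. Python 3.11.15, numpy 2.4.6, pandas 2.3.3 and matplotlib 3.10.9 were used.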

Additional observations from a re-analysis of the deposited data

How the results depend on the processing

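The 6 results were computed under 30 alternatives, and 25 gave a count within 1.5 times, or a median within the spread of replicate medians, of the reported one. Bound members numbered 36 with a window of 250 bp, 37 with 1000 bp, 28 in the upper 50% of the optimal list and 42 in the pooled list, and 39 for the highest regions of at least 2 replicates, an alternative chosen after seeing the data. The median position, 11 bp upstream, was -5 bp from the most upstream TSS, -19 bp in the replicate 1 list and -17.5 bp for members with 1 annotated TSS, the last also chosen after seeing the data. The median rank of the 42 members with a pooled promoter summit was 1705. Over the 44 members listed in replicate 1 it was 2096.5, and over the 44 listed in replicate 2 it was 2033. These medians cover different sets of members. Members high in all replicates numbered 30, from 31 to 34 when a replicate was left out, 20 for the highest 2500 regions and 33 for the highest 10000. Members with the TCT motif numbered 45 within 10 bp, 30 within 5 bp and 49 within 20 bp. The causes of these shifts were not tested. With 1 group there is nothing to pair: No paired analysis was possible because all samples belong to the same group. Unknown depth limits every statement about a missing region.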
